A study of Mus musculus with 26 samples.

Results

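Brown adipose tissue, the fat depot that turns fuel into heat, was compared between mice under a cold challenge with fasting and mice fed at room temperature. Both groups carried the genotype KLF15 flox/flox, written FF here, with floxed Klf15 alleles and no Cre. They were chosen by genotype and treatment label, which gave 3 cold plus fasting libraries and 3 fed room temperature libraries, 6 of the 26 in the series. All mice of the series were 2 months old. Other groups enter as references. These are FF mice in cold alone (n = 4) or fasted at room temperature (n = 3). BKO mice (Ucp1-Cre/+;K15F/F) have the same floxed alleles with Cre under the Ucp1 promoter, the promoter of a gene of brown adipocytes, and were studied in the same states (n = 3, and 4 in cold). The labels give neither the temperature of the cold challenge nor how long cold and fasting lasted. They do not say whether libraries came from separate mice, so p-values measure only the spread between these libraries.

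Values are FPKM, in which each gene's fragments are divided by its length and by the library's fragments, so that levels of genes can be set side by side. Summed FPKM ranged from 416920 to 462679 over the 6 libraries, 11480 to 11816 genes per library reached 1 FPKM, and sequencing depth is unknown. Log2(FPKM + 1) correlated at 0.978 to 0.990 within the groups (6 pairs) and at 0.960 to 0.976 between them (9 pairs). The library numbers in the sample descriptions put fed replicates 1 and 2 in an earlier series (numbers up to 8), while fed replicate 3 and all 3 cold plus fasting libraries belong to the later one. Within the later series the numbers also run in blocks by state, such as 20 to 25 in cold plus fasting and 29 to 32 fed. State and block cannot be told apart there. For called genes, the log2 difference against fed replicate 3 alone is given where the difference from all fed libraries was more than 1.5 times as large, and the fit with library series as a covariate where it ended the call. The tissue label was set beside brown adipocyte markers, whose summed level was 19650 to 22330 FPKM fed and 25350 to 29170 FPKM in cold plus fasting. Their list holds Ucp1, Cidea, Cox7a1, Cox8b, Elovl3, Ebf2, Prdm16, Letmd1 and Ppargc1a, and also Adipoq, Plin1 and Fabp4, which white adipocytes express too. Such a sum follows its most abundant members, so it does not by itself tell brown from white fat. White adipocyte markers summed to 48.14 to 53.67 FPKM fed and 35.4 to 48.12 FPKM in cold plus fasting. Of these 10 genes Hoxc9, Hoxc10 and Tcf21 were below 0.1 FPKM in all 6 libraries, and 0 of 4 tested passed in either direction by limma. In bulk tissue, fewer cells of a type and less RNA per cell cannot be told apart.

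In brown adipocytes, noradrenaline released in the cold acts through beta adrenergic receptors and cAMP, which starts lipolysis and the transcription of thermogenic genes. The released fatty acids are burned in mitochondria, where UCP1 lets protons re-enter the matrix so that energy leaves as heat. Fasting withdraws glucose and insulin and raises circulating fatty acids and glucocorticoids, so cold plus fasting asks the tissue to make heat while its usual fuel supply is cut.

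Of 11808 genes with a value, 2519 differed between cold plus fasting and fed FF mice at an adjusted p under 0.05 by limma, which is 21.3%. Of these, 1431 were higher (12.1%) and 1088 lower (9.21%), and 145 rises and 101 falls exceeded 1 on the log2 scale. The 3 and 3 libraries did not overlap in 4681 genes (39.6% of those tested), among them 2360 of the called genes. Against fed replicate 3 alone, 2507 of the called genes kept their sign and 2155 (85.5%) kept at least 0.5 of their size. Fed replicate 3 and the cold plus fasting libraries also made the calls, so much of this agreement is built in and it is no independent check. A fit that carried library series as a covariate called 814 genes, 530 of them higher and 284 lower. With only libraries numbered above 8, which leaves 1 fed library assumed to vary like the other groups, 313 were called (190 higher, 123 lower). The count was 1592 without cold plus fasting replicate 1, 1510 without fed replicate 1 and 1557 without fed replicate 2.

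The largest rise was that of Mb, myoglobin, an oxygen-binding heme protein of oxidative tissue (ENSMUSG00000018893.14, chromosome 15, 77015487 to 77050670). Mb stood at 2.47, 2.51 and 1.3 FPKM in the fed libraries and at 61.6, 57.1 and 24.7 FPKM in cold plus fasting, a 22.9-fold higher mean (log2 difference 3.90, SE 0.32, adjusted p = 1.86e-08). Every cold plus fasting library lay far above every fed one, though the level in replicate 3 was below the others. Myoglobin is also a muscle gene. Skeletal muscle markers summed to 65.3, 97.2 and 36.0 FPKM in the fed libraries and 83.3, 91.6 and 93.3 FPKM in cold plus fasting. The fed library with the most muscle signal had 2.51 FPKM of Mb. None of 11 tested muscle markers passed by limma (median 1.10 on the log2 scale), Myh7 was below 0.1 FPKM in all 6 libraries, and their part in the Mb difference was not tested.

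Hcn2, a cation channel opened by hyperpolarization and cyclic nucleotides (ENSMUSG00000020331.9, chromosome 10, 79716634 to 79736108), was at 0.511, 0.51 and 0.617 FPKM fed and at 15, 12.4 and 9.64 FPKM in cold plus fasting (log2 difference 3.09, SE 0.18, adjusted p = 4.15e-11). The fed libraries held next to none of it and agreed closely. Bmp8b, a secreted factor of brown fat that sensitizes the tissue to noradrenaline (ENSMUSG00000002384.2, chromosome 4, 123105165 to 123132099), went from 0.113, 0.137 and 0.322 to 9.84, 12.5 and 5.78 FPKM (log2 difference 3.07, SE 0.33, adjusted p = 9.54e-07). Slc25a34, a mitochondrial carrier of the Slc25 family, was at 5.08, 5.5 and 11.2 FPKM fed and 71, 49.4 and 41.5 FPKM in cold plus fasting (log2 difference 2.77, SE 0.25, adjusted p = 9.18e-08). In each of these genes the groups were far apart, and fed replicate 3 was the highest of the fed libraries. The other leading rises were the organic anion transporter Slco4a1 (2.11, 1.35 against fed replicate 3 alone), the cell cycle transcription factor E2f2 (2.08, 1.11 against fed replicate 3 alone), Bdh1, which converts ketone bodies (2.07), the sulfotransferase Sult5a1 (2.02), the brain-type creatine kinase Ckb (2.00) and Ttc25, a gene known from cilia (1.99, 0.72 against fed replicate 3 alone). Ttc25 was at 5.38, 4.08 and 20.5 FPKM fed, and its call ended with library series as a covariate (1.31, adjusted p = 0.053).

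The largest fall with a value in every library was that of Car3, carbonic anhydrase 3, an abundant cytosolic enzyme of adipocytes (ENSMUSG00000027559.5, chromosome 3, 14863512 to 14872523). Car3 stood at 2709, 3081 and 2255 FPKM in the fed libraries and at 255, 265 and 225 FPKM in cold plus fasting, so that 9.27% of the fed mean remained (log2 difference -3.42, SE 0.22, adjusted p = 2.81e-10). The lowest fed library was far above the highest cold plus fasting one. The lactate receptor Hcar1 fell from 24.7, 21.4 and 22 FPKM to 4.59, 2.79 and 5.09 FPKM (log2 difference -2.23, SE 0.27, adjusted p = 4.76e-06). Hcar2, the receptor for beta-hydroxybutyrate and nicotinic acid, went from 7.62, 10.4 and 10.5 to 1.12, 0.961 and 1.05 FPKM (log2 difference -2.35, SE 0.22, adjusted p = 1.58e-07). Both are antilipolytic receptors of adipocytes, and in both every cold plus fasting library lay below every fed one. Further leading falls were Mycl, a member of the Myc family (-2.45), the guanine nucleotide exchange factor Net1 (-2.43), the extracellular matrix protein gene Svep1 (-2.41), Irf4, a transcription factor of thermogenic and fasting programmes (-2.41), the annexin Anxa8 (-2.18), the growth factor Igf1 (-2.13) and Rgs2, which turns off G protein signals (-2.02, -0.97 against fed replicate 3 alone). Rgs2 stood at 210.4, 204 and 68.7 FPKM fed and 17.4, 62.2 and 37.8 FPKM in cold plus fasting, so fed replicate 3 stood next to the cold plus fasting group, and the covariate ended its call (-1.53, adjusted p = 0.0649). Snora28, a small nucleolar RNA, was listed at 0 in all 3 cold plus fasting libraries and at 6.61, 19.9 and 20.5 FPKM in the fed ones, and no fold is given.

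**Figure D1:**
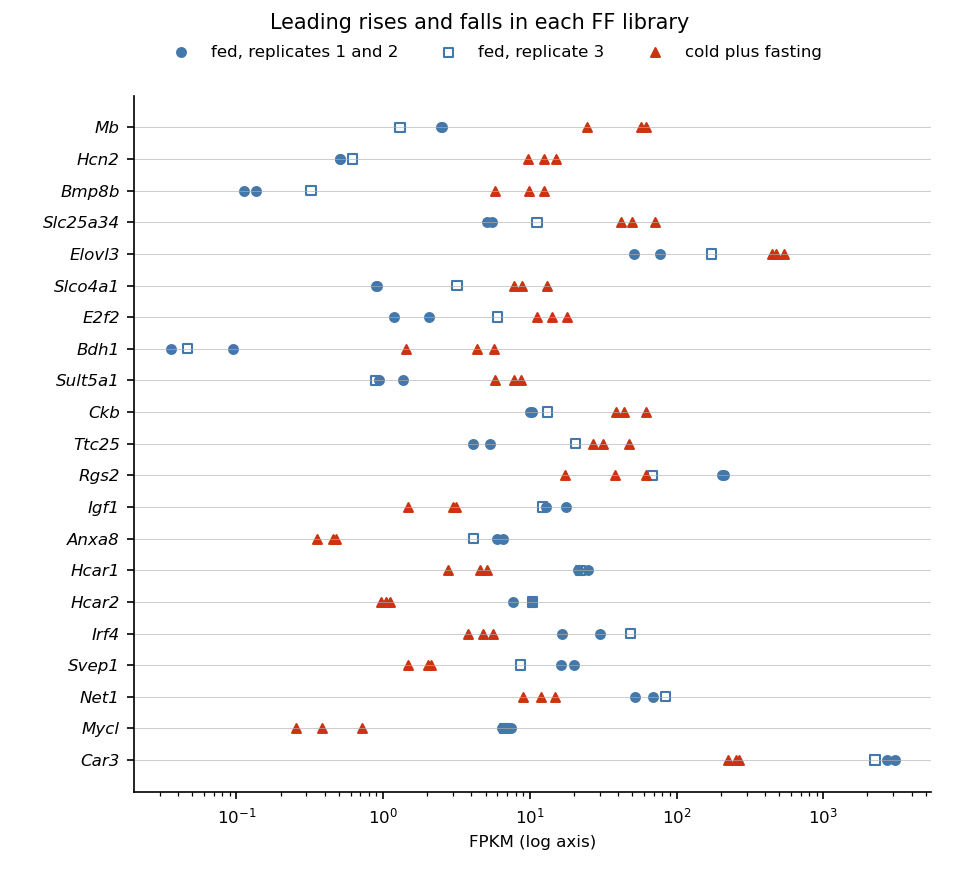
Level of each of 21 leading genes in the 6 FF libraries, 1 point per library, on a log axis of FPKM; filled circles are fed replicates 1 and 2, open squares fed replicate 3 and triangles cold plus fasting. The 11 rises at the top and 10 falls below show no overlap between the groups, and the open squares of Ttc25, E2f2 and Rgs2 lie nearest the triangles.

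Thermogenic genes changed in both directions. Of 23 tested members, 8 rose and 4 fell, a share of rises above the 12.1% of all genes, and with library series as a covariate the counts were 6 and 1. Ucp1 itself (ENSMUSG00000031710.4, chromosome 8, 83290352 to 83298452) was at 2647, 2687 and 4486 FPKM fed and 8700.1, 7859 and 6691 FPKM in cold plus fasting, 2.37-fold higher (log2 difference 1.28, SE 0.20, adjusted p = 0.000313, 0.78 against fed replicate 3 alone). Every cold plus fasting library was above every fed one, but fed replicate 3 was well above the other two, and the call ended with the covariate (0.78, adjusted p = 0.0599) and under quantile normalization. Elovl3, which elongates very long chain fatty acids and marks active brown fat, went from 76.5, 50.9 and 174 FPKM to 539, 451 and 473 FPKM (log2 difference 2.45, SE 0.43, adjusted p = 0.000271), or 1.48 on the log2 scale against fed replicate 3 alone. Esrrb, an estrogen-related receptor, rose from 0.101, 0.143 and 0.119 to 1.92, 1.63 and 1.31 FPKM (log2 difference 1.22, SE 0.15, adjusted p = 7.28e-06). Letmd1, a mitochondrial protein of brown fat, went from 322, 327 and 374 to 567, 547 and 569 FPKM (log2 difference 0.72, SE 0.08, adjusted p = 3.06e-06). Irf4 fell from 30.1, 16.6 and 48.6 to 4.77, 5.61 and 3.79 FPKM (log2 difference -2.41, SE 0.39, adjusted p = 0.000145), with no overlap between the groups. The other falls were those of Ppara (-0.82, adjusted p = 0.0195), Ebf2 (-0.68, adjusted p = 0.0111, -0.39 against fed replicate 3 alone) and Pparg (-0.43, adjusted p = 0.00778, -0.15 against fed replicate 3 alone), 2 nuclear receptors and a commitment factor of brown fat, which lost their calls with the covariate (adjusted p = 0.123, 0.0911 and 0.172). Without fed replicate 1 adjusted p was 0.09, 0.074 and 0.0615 for these genes, and the count of falls was 1. It was 2 without cold plus fasting replicate 1.

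Some genes often used as signs of adrenergic activation did not pass. Dio2, which makes active thyroid hormone, was at 17.8, 13.2 and 27.7 FPKM fed and at 25.1, 58 and 15.1 FPKM in cold plus fasting (0.56, adjusted p = 0.337). Ppargc1a, the coactivator of mitochondrial biogenesis, was at 16.8, 11.2 and 9.52 FPKM fed and 8.01, 16.4 and 8.84 FPKM in cold plus fasting (-0.19, adjusted p = 0.753). The beta adrenergic receptor Adrb3 was at 167, 115 and 230.4 FPKM fed and 122, 191 and 134 FPKM in cold plus fasting (-0.16, adjusted p = 0.744). In all of these the groups overlapped. Of 27 genes of adrenergic and cAMP signalling, 2 rose and 4 fell, the counts being 2 and 1 with the covariate. Both rises were of adenylyl cyclases. Adcy3 was at 43, 32.5 and 61 FPKM fed and 144, 124 and 104 FPKM in cold plus fasting (log2 difference 1.46, SE 0.24, adjusted p = 0.000187). Adcy10 was at 1.41, 1.1 and 2.74 FPKM fed and 5.17, 7.69 and 6.98 FPKM in cold plus fasting (adjusted p = 6.21e-05). Neither cyclase overlapped between the groups. The falls in the list numbered 7 without cold plus fasting replicate 2 and 2 without fed replicate 2. Klf15, the floxed gene, a zinc finger transcription factor intact in these mice, was at 29.8, 30.6 and 23.5 FPKM fed and 21.7, 16.4 and 15.4 FPKM in cold plus fasting (log2 difference -0.63, SE 0.19, adjusted p = 0.0198, -0.40 against fed replicate 3 alone). The call ended with the covariate (adjusted p = 0.139) and without cold plus fasting replicate 2 or 3 or fed replicate 1 or 2 (adjusted p = 0.0639, 0.0872, 0.0802 and 0.0859).

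Of 25 tested genes of mitochondrial fatty acid oxidation, 11 rose and 1 fell (median log2 difference 0.22, against 0.00 over all genes), and 10 and 0 did with the covariate. Cpt2, which hands fatty acids from carnitine back to coenzyme A inside the mitochondrion, was at 248, 248 and 268 FPKM fed and 458, 420.4 and 398 FPKM in cold plus fasting (log2 difference 0.74, SE 0.09, adjusted p = 4e-06). Hadha, the long-chain subunit of the trifunctional protein, went from 555, 529.7 and 553 to 895, 891 and 834 FPKM (log2 difference 0.68, SE 0.08, adjusted p = 4.87e-06). The fed libraries, fed replicate 3 among them, were nearly equal in both genes and clearly below all 3 cold plus fasting libraries. The carnitine carrier Slc25a20 (0.56), the acyl-CoA dehydrogenase Acad11 (0.65) and Etfdh, which passes electrons on to ubiquinone (0.59), rose by similar amounts. Cpt1b, the carnitine transferase at the outer membrane, was at 368, 393 and 386 FPKM fed and 476, 412 and 389 FPKM in cold plus fasting and did not pass (0.15, adjusted p = 0.334). Of 11 acyl-CoA thioesterases, which release fatty acids from coenzyme A, 7 rose and 0 fell (3 and 0 with the covariate). Acot1 went from 0.971, 0.75 and 1.33 to 10.6, 5.23 and 4.69 FPKM (log2 difference 1.89, SE 0.39, adjusted p = 0.00128). The mitochondrial Acot2 went from 18.7, 15.8 and 22.7 to 42.3, 34.8 and 37.6 FPKM (log2 difference 0.98, SE 0.16, adjusted p = 0.000181), both without overlap. Acot1 and Acot2 are close paralogs, so reads may be shared between them.

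In the peroxisome, 7 of 20 lipid enzymes rose and 1 fell (5 and 1 with the covariate). The sterol carrier gene Scp2 (0.42) and Decr2, which handles unsaturated fatty acids (0.40), rose. Abcd2, an importer of very long chain fatty acids, fell from 13, 15.7 and 14 to 4.84, 6.27 and 4.9 FPKM (log2 difference -1.27, SE 0.24, adjusted p = 0.000659). Of 16 genes of lipolysis and lipid droplets, 4 rose and 1 fell, with 2 and 0 under the covariate. Mgll, which completes the breakdown of triglycerides, went from 243, 218 and 288 to 514, 464 and 523 FPKM (log2 difference 1.01, SE 0.13, adjusted p = 1.55e-05). The droplet coat gene Plin2 went from 399, 325 and 613 to 842, 856 and 934 FPKM (log2 difference 1.03, SE 0.19, adjusted p = 0.000406, 0.52 against fed replicate 3 alone). No fed library reached the level of a cold plus fasting library in either gene. Pnpla2, the first lipase of the pathway, was at 1379, 1327 and 1445 FPKM fed and 1722, 1576 and 1621 FPKM in cold plus fasting and did not pass (0.24, adjusted p = 0.0863). The 4 rises in the list became 2 without cold plus fasting replicate 1 or 3 or fed replicate 1 or 2.

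Of 21 genes of lipoprotein lipase and fatty acid uptake, 7 rose and 3 fell (3 and 1 with the covariate, and 3 rises without cold plus fasting replicate 1 and 1 fall without fed replicate 2). Acsl5, which activates fatty acids, rose from 223, 169 and 279 to 494, 481 and 509.9 FPKM (log2 difference 1.17, SE 0.22, adjusted p = 0.000598). The fatty acid binding protein gene Fabp3 went from 120.4, 138 and 144 to 354, 321 and 235 FPKM (log2 difference 1.15, SE 0.18, adjusted p = 7.76e-05). Apoe, the apolipoprotein of lipid exchange, fell from 645, 764 and 660.3 to 184, 166 and 167 FPKM, 25% of the fed mean (log2 difference -1.99, SE 0.17, adjusted p = 6.53e-08). That fall was as large against fed replicate 3 alone (-1.93 on the log2 scale). Angptl4, a secreted inhibitor of lipoprotein lipase, was at 153, 214 and 71.8 FPKM fed and 36.9, 87.9 and 56.4 FPKM in cold plus fasting (log2 difference -1.21, SE 0.32, adjusted p = 0.00807, -0.33 against fed replicate 3 alone). Its groups overlapped, and the call ended with the covariate (adjusted p = 0.232) and without cold plus fasting replicate 1 or fed replicate 2 (adjusted p = 0.0701 and 0.076). Lpl itself did not pass (0.26, adjusted p = 0.238).

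Of 23 tested genes of glucose uptake and glycolysis, 13 rose and 0 fell (median 0.43), and 8 and 0 did with the covariate. Pfkl, the liver-type phosphofructokinase that sets the pace of glycolysis, went from 227, 189.8 and 293 to 421, 399 and 463 FPKM (log2 difference 0.87, SE 0.13, adjusted p = 5.7e-05, 0.54 against fed replicate 3 alone). Pyruvate kinase Pkm went from 849.5, 731 and 969 to 1345, 1328 and 1529 FPKM (log2 difference 0.73, SE 0.11, adjusted p = 5.53e-05). Pgam1 (0.68) and Tpi1 (0.59), enzymes of the middle of the pathway, rose too. In these 4 genes every cold plus fasting library lay above every fed library. Hexokinase Hk2 was at 77.2, 55.1 and 106 FPKM fed and 184, 116 and 169.8 FPKM in cold plus fasting (log2 difference 0.99, SE 0.21, adjusted p = 0.00161, 0.53 against fed replicate 3 alone), a call that the covariate ended (adjusted p = 0.0716). The glucose transporters did not pass. Slc2a4 was at 276, 268 and 353 FPKM fed and 364, 328 and 389 FPKM in cold plus fasting (0.28, adjusted p = 0.0823). Slc2a1 was at 2.01, 2.4 and 2.64 FPKM fed and 2.26, 2.59 and 2.25 FPKM in cold plus fasting (0.01, adjusted p = 0.965).

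Of 14 genes at the pyruvate dehydrogenase gate, 5 rose and 0 fell (2 with the covariate). The mitochondrial pyruvate carrier subunit Mpc2 rose from 529, 554 and 604 to 845, 782 and 800.3 FPKM (log2 difference 0.52, SE 0.10, adjusted p = 0.000485), and the dehydrogenase kinase Pdk2, which slows pyruvate entry, by 0.48 on the log2 scale (adjusted p = 0.000451). Pdk4, the kinase known to respond to fasting, was at 1062, 1257 and 859 FPKM fed and 600.5, 1271 and 711 FPKM in cold plus fasting, with overlap, and did not pass (-0.36, adjusted p = 0.243). The 5 rises became 3 without fed replicate 1 and 2 without fed replicate 2 or cold plus fasting replicate 1 or 2. In glycogen metabolism 6 of 18 genes rose and 1 fell (3 rises without cold plus fasting replicate 1 or fed replicate 1 or 2, and 1 with the covariate). Ppp1r3c, a subunit that directs a phosphatase to glycogen, went from 56.1, 42.2 and 48.2 to 123, 84.6 and 111 FPKM (log2 difference 1.10, SE 0.24, adjusted p = 0.00227), a call that the covariate left in place. The glycogen synthase Gys2 (0.91, adjusted p = 0.00233, 0.55 against fed replicate 3 alone) lost its call with it (adjusted p = 0.075). Of 7 tested pentose phosphate genes 4 rose and 0 fell. Rpia, ribose 5-phosphate isomerase, went from 9.84, 7.95 and 16.8 to 29.7, 19.9 and 33.8 FPKM (log2 difference 1.23, SE 0.21, adjusted p = 0.000234, 0.66 against fed replicate 3 alone). The count was 2 without cold plus fasting replicate 3 and 1 without fed replicate 2 or with the covariate.

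Few genes of fatty acid synthesis differed from the fed level. Of 17 tested genes of de novo lipogenesis, 1 rose and 2 fell, shares below or near those of all genes. The rises were 3 without fed replicate 3, and the falls were 1 without fed replicate 1 or 3 or cold plus fasting replicate 1 or 2 and 0 with the covariate. Acly, which makes cytosolic acetyl-CoA from citrate, was at 1355, 759.7 and 1708 FPKM fed and 1042, 1152 and 1869 FPKM in cold plus fasting (0.12, adjusted p = 0.822). Acaca, the carboxylase that commits it to fat, was at 319, 240.1 and 356 FPKM fed and 263, 300.3 and 337 FPKM in cold plus fasting (-0.01, adjusted p = 0.98). The groups overlapped in both genes. The transcription factors Srebf1 (0.16, adjusted p = 0.6) and Mlxipl (0.33, adjusted p = 0.0557) and the elongase Elovl6 (0.63, adjusted p = 0.0808) did not pass either. Mid1ip1, which helps the carboxylase to polymerize, rose from 24.2, 18.9 and 37.5 to 91, 46.5 and 76.8 FPKM (log2 difference 1.38, SE 0.25, adjusted p = 0.000419, 0.86 against fed replicate 3 alone). The desaturase Fads1 fell by 0.46 (adjusted p = 0.00346, and 0.0549 with the covariate). Fasn and Scd1 were listed at 0 in all 6 libraries and Gpd1 in the 3 cold plus fasting ones, where fed values were 3123, 2748 and 4007 FPKM. Zeros of Gpd1 and Fasn, which are abundant in other libraries, were taken as failed estimates. Scd1 was at 0 in all 26 libraries of the series, so no value shows its level. Nothing can be said of Fasn, Scd1 and Gpd1. Glycerol kinase Gk was at 27.3, 26.2 and 41.5 FPKM fed and 94.6, 72.2 and 31.9 FPKM in cold plus fasting (0.94, adjusted p = 0.123). Pck1, the enzyme of glyceroneogenesis, fell from 1469, 1747 and 1813 to 949, 1269.7 and 819.8 FPKM (log2 difference -0.74, SE 0.18, adjusted p = 0.00443), with adjusted p = 0.0516 under the covariate. Of 15 tested genes of triglyceride synthesis, 5 rose and 2 fell (1 and 0 with the covariate, 3 rises without fed replicate 2, and 1 fall without fed replicate 1 or cold plus fasting replicate 1 or 3). The acyltransferase Agpat1 went from 55.5, 57.8 and 66.3 to 99.9, 82.3 and 98.2 FPKM (log2 difference 0.63, SE 0.09, adjusted p = 3.74e-05).

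Of 22 genes of cholesterol synthesis and uptake, 6 rose and 0 fell. Sc5d, an enzyme of the last steps of synthesis, went from 27.3, 21.6 and 50.2 to 71, 77.2 and 76.5 FPKM (log2 difference 1.25, SE 0.24, adjusted p = 0.000643, 0.57 against fed replicate 3 alone). Fed replicate 3 was the highest fed library, and the list count was 3 with the covariate, 3 without cold plus fasting replicate 1 or fed replicate 2 and 11 without fed replicate 3. Among 6 ketone body genes 3 rose and 0 fell, a count of 1 with the covariate and without cold plus fasting replicate 1 or fed replicate 1. Bdh1 was at 0.0948, 0.0356 and 0.0462 FPKM fed and 4.33, 5.72 and 1.44 FPKM in cold plus fasting (log2 difference 2.07, SE 0.32, adjusted p = 7.29e-05).

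Of 20 genes of branched-chain amino acid breakdown, 6 rose and 0 fell (4 and 0 with the covariate). Pcca, a subunit of propionyl-CoA carboxylase, went from 122, 119 and 124 to 239, 242 and 202 FPKM (log2 difference 0.89, SE 0.11, adjusted p = 5.44e-06). Bckdhb, of the complex that commits the branched-chain ketoacids, went from 97, 100.2 and 96.7 to 149.5, 127 and 123 FPKM (log2 difference 0.43, SE 0.07, adjusted p = 0.00026). The 3 fed libraries differed little in either gene. Bcat2, the transaminase, did not pass (0.28, adjusted p = 0.122), and Slc25a44, the mitochondrial carrier for these amino acids, rose by 0.49 (adjusted p = 0.00424), with adjusted p = 0.104 under the covariate. Of 16 genes of other amino acid breakdown, 5 rose and 1 fell (5 and 0 with the covariate). Got1, a transaminase of the malate-aspartate shuttle, rose from 9.53, 8.31 and 16.4 to 41.4, 31.2 and 40.8 FPKM (log2 difference 1.69, SE 0.17, adjusted p = 4.41e-07). Fah, the last enzyme of tyrosine breakdown, went from 47.1, 47.5 and 51.8 to 128, 129.7 and 133 FPKM (log2 difference 1.40, SE 0.12, adjusted p = 3.41e-08). Prodh, proline dehydrogenase, went from 10.8, 12.9 and 14.9 to 24.2, 29 and 19.2 FPKM (log2 difference 0.85, SE 0.17, adjusted p = 0.00109).

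Of 70 nuclear genes of the respiratory chain, 8 rose and 0 fell, a share of rises about that of all genes, with a median of 0.05. The count was 4 with the covariate, 4 without cold plus fasting replicate 1 or fed replicate 1 and 5 without cold plus fasting replicate 2 or fed replicate 2 or 3. Atp5b, the catalytic subunit of ATP synthase, was at 3422, 3621 and 3466 FPKM fed and 4933, 5021 and 4457 FPKM in cold plus fasting (log2 difference 0.45, SE 0.07, adjusted p = 9.79e-05, a call that quantile normalization ended). Cox7a1, a cytochrome oxidase subunit of heart, muscle and brown fat, was at 1658, 1844 and 1556 FPKM fed and 2526, 2624 and 2412 FPKM in cold plus fasting (log2 difference 0.58, SE 0.14, adjusted p = 0.00512). Both were higher in every cold plus fasting library. Of 21 tricarboxylic acid cycle genes, 6 rose and 1 fell, and 1 and 0 did with the covariate. The rises were 2 without cold plus fasting replicate 1 or fed replicate 1 and 3 without fed replicate 2. Of 70 mitochondrial ribosomal protein genes, 12 rose and 0 fell (5 with the covariate, and 6 without cold plus fasting replicate 1 or fed replicate 1), led by Mrpl47 (0.63, adjusted p = 0.000125). Of 6 tested creatine cycle genes 2 rose and 2 fell. Ckb went from 10.1, 10.3 and 13.2 to 62.3, 44.1 and 38.7 FPKM (log2 difference 2.00, SE 0.23, adjusted p = 2.19e-06). The phosphatase Alpl went from 6.6, 7.38 and 11.4 to 30.1, 29.5 and 24.3 FPKM (log2 difference 1.64, SE 0.18, adjusted p = 1.03e-06). The creatine transporter Slc6a8 (-0.58, adjusted p = 0.00642, and 0.0743 with the covariate) fell, and so did Gamt, a methyltransferase of creatine synthesis (-0.58, adjusted p = 0.0303, -0.36 against fed replicate 3 alone, and adjusted p = 0.391 with the covariate). The call of Gamt ended also without any 1 of the libraries but fed replicate 3 (adjusted p from 0.053 to 0.111), and the list had 0 falls with the covariate.

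**Figure D2:**
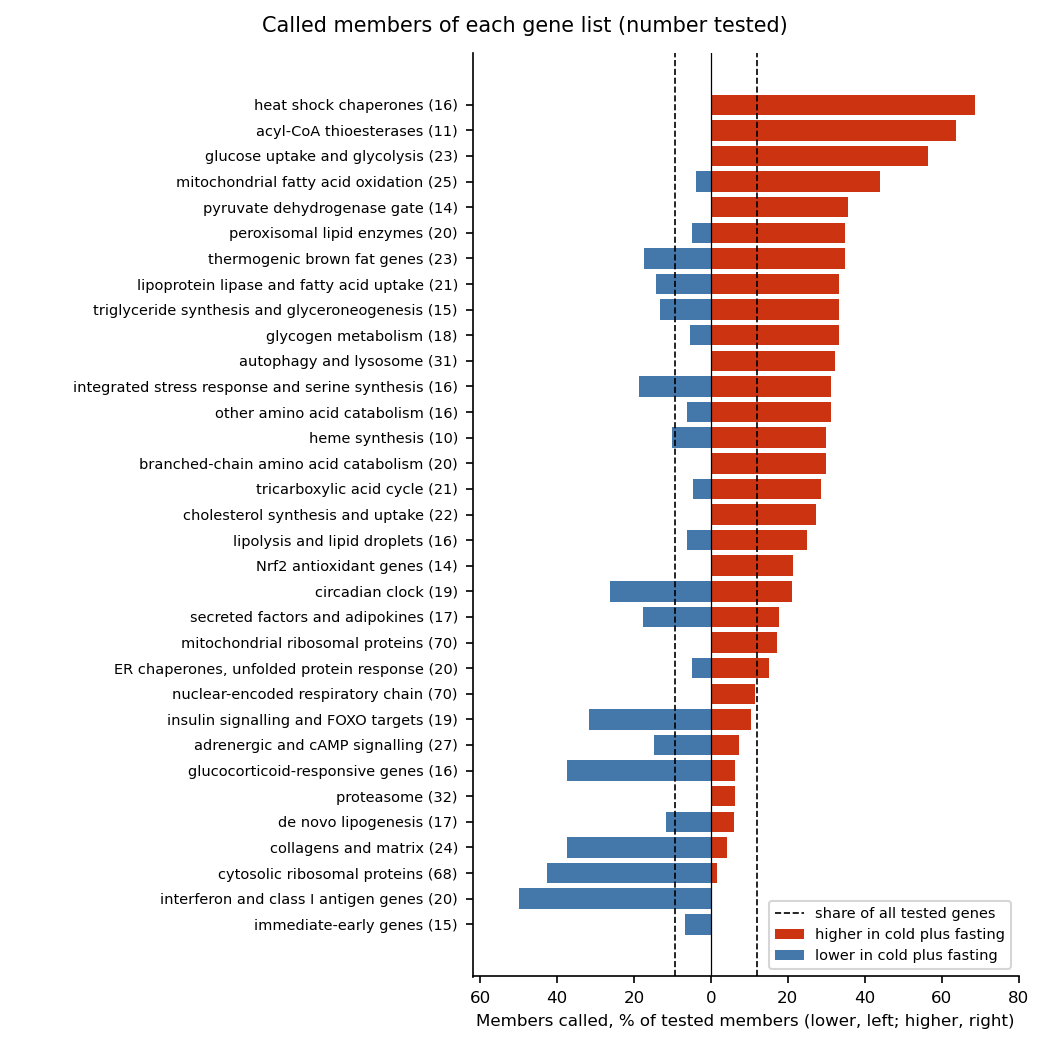
Share of the tested members of each gene list that was called higher (red, to the right) or lower (blue, to the left) in FF cold plus fasting against FF fed, in % of the members tested (number in brackets), for the 33 pathway lists with at least 10 tested members. The dashed lines mark the 12.1% and 9.21% of all tested genes called higher and lower; heat shock chaperones (11 of 16) and glycolysis (13 of 23) lie far to the right, and interferon-stimulated and class I antigen genes (10 of 20) and cytosolic ribosomal proteins (29 of 68) far to the left.

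Chaperones of the heat shock response, which refold proteins under stress and are driven by the factor HSF1, rose broadly. Of 16 tested genes 11 rose and 0 fell, with a median log2 difference of 0.83, and all 16 had a positive difference. With the covariate 6 rose, and 3 with only libraries above 8. Dnajb1, a partner that delivers clients to HSP70, was at 15.6, 15 and 15.8 FPKM fed and 31.3, 33.2 and 38.3 FPKM in cold plus fasting (log2 difference 1.10, SE 0.21, adjusted p = 0.000654). Bag3, which steers clients to autophagy, was at 17.7, 17.2 and 19.6 FPKM fed and 35.8, 36.1 and 35.7 FPKM in cold plus fasting (log2 difference 0.95, SE 0.17, adjusted p = 0.000457). The libraries of each group were tightly grouped and did not overlap. Hsph1, a nucleotide exchange factor of HSP70, rose from 27.4, 19.3 and 15.7 to 45.2, 42.5 and 51.8 FPKM (log2 difference 1.15, SE 0.31, adjusted p = 0.0101). Chordc1, a partner of HSP90, went from 22.3, 19.8 and 15.7 to 36.4, 34 and 36.1 FPKM (log2 difference 0.86, SE 0.20, adjusted p = 0.00356). Among inducible HSP70 genes, Hspa1a was at 0.378, 0.242 and 0.702 FPKM fed and 2.02, 3.23 and 2.29 FPKM in cold plus fasting (log2 difference 1.28, SE 0.36, adjusted p = 0.013). Hspa1b was at 0.923, 0.513 and 0.765 FPKM fed and 2.78, 4.95 and 4.84 FPKM in cold plus fasting (log2 difference 1.56, SE 0.44, adjusted p = 0.0147). These paralogs are nearly identical, so reads may be split between them, and their calls ended with the covariate (adjusted p = 0.179 and 0.159). That of Hspa1a ended also without cold plus fasting replicate 2 or fed replicate 2 (adjusted p = 0.0531 and 0.0573), and that of Hspa1b without cold plus fasting replicate 3 or fed replicate 2 (adjusted p = 0.0517 and 0.0577). Hsph1, Hspa1a and Hspa1b were chosen for naming after their values were seen.

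HSF1 is known to bind inverted repeats of the unit GAA. The motif GAANNTTCNNGAA, searched on both strands (the reverse complement is TTCNNGAANNTTC) in RefSeq promoters of GRCm38.p6 from 250 bases before to 50 after each gene's start, was present in 179 of 27025 genes (0.662%). Of 12 heat shock genes with a promoter in the table it was in 4, and of the 9 called ones among these in 2, namely Chordc1 (chr9:18292017-18292316, plus strand) and Hsph1 (chr5:149636266-149636565, minus strand). The other list genes with a match were not called. The promoters of Chordc1 and Hsph1 are printed 5′ to 3′ with the matches in capitals, to show where the motif lies. In Chordc1, 3 matches overlap in 1 run. A match describes letters, not binding, and no match says only that these letters are not in the window.
Chordc1: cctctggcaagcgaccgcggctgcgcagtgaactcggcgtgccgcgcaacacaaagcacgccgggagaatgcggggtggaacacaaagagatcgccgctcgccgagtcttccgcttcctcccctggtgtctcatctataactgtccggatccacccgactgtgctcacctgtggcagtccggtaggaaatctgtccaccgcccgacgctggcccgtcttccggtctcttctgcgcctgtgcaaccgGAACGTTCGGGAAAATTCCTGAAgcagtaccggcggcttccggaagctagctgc
Hsph1: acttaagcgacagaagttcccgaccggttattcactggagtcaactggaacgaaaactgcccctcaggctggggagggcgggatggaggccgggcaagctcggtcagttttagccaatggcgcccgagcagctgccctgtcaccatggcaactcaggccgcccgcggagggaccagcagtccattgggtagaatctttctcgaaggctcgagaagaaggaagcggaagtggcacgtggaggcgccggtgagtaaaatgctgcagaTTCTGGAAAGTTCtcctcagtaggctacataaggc

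In a list that joins interferon-stimulated genes with genes of class I antigen presentation, which load peptides made by the proteasome onto major histocompatibility molecules, 0 of 20 tested genes rose and 10 fell (median -0.38), and 6 fell with the covariate and 4 with only libraries above 8. The falls included the interferon-stimulated genes Irf7 and Stat2. Others, such as Ifit1 (-0.36, adjusted p = 0.0575), Isg15 (-0.16, adjusted p = 0.676) and Oasl2 (-0.24, adjusted p = 0.214), did not pass. The members described next are those of class I presentation and Bst2. The class I heavy chain gene H2-K1 was at 233, 194 and 193 FPKM fed and 121, 114 and 133 FPKM in cold plus fasting (log2 difference -0.74, SE 0.10, adjusted p = 1.69e-05). H2-D1 was at 215, 186 and 156 FPKM fed and 96.2, 98.1 and 106 FPKM in cold plus fasting (log2 difference -0.88, SE 0.10, adjusted p = 1.48e-06). Both were lower in every cold plus fasting library. They belong to a family of near-identical genes among which reads may be divided. Psmb8, a subunit of the immunoproteasome, fell from 18.7, 14.3 and 12.9 to 5.55, 5.34 and 7.2 FPKM (log2 difference -1.21, SE 0.15, adjusted p = 5.31e-06). The peptide transporter Tap1 went from 9, 7.97 and 7.82 to 3.72, 3.31 and 4.08 FPKM (log2 difference -0.98, SE 0.11, adjusted p = 3.06e-06). B2m, the light chain, was at 618, 553 and 374 FPKM fed and 271, 283 and 244 FPKM in cold plus fasting (log2 difference -0.92, SE 0.17, adjusted p = 0.000451). Against fed replicate 3 alone its difference was -0.49. Bst2, an antiviral membrane protein, was at 28.6, 27.3 and 19.4 FPKM fed and 15.9, 15.5 and 15.2 FPKM in cold plus fasting (log2 difference -0.64, SE 0.13, adjusted p = 0.00143, -0.30 against fed replicate 3 alone). That call ended with the covariate (adjusted p = 0.078). B2m, Bst2, Irf7, Stat2, Ifit1, Isg15 and Oasl2 were chosen for naming after their values were seen. Of 10 macrophage markers 0 rose and 2 fell, and their summed level was 104.9 to 123.3 FPKM fed and 83.87 to 106.9 FPKM in cold plus fasting. Lymphocyte markers summed to 8.56 to 11.6 FPKM fed and 15.3 to 34.5 FPKM in cold plus fasting. Most of each cold plus fasting sum was Ighm, whose levels are given below, and the other markers together summed lower than in the fed libraries. Of 2 tested by limma, Ighm rose (1.70, adjusted p = 0.000768) and Nkg7 fell (-0.68, adjusted p = 0.0186). The call of Nkg7 ended with the covariate (adjusted p = 0.134) and without cold plus fasting replicate 1 or 3 or fed replicate 1. Cd8a was below 0.1 FPKM in all 6 libraries. The part of macrophages and lymphocytes in the class I genes was not tested.

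Interferon-responsive promoters are known for the core GAAANNGAAA. On either strand of the same windows (the reverse complement is TTTCNNTTTC) it was present in 1079 of 27025 genes (3.99%), in 8 of 17 list genes with a promoter and in 3 of the 9 called ones among these. The other list genes with a match were not called. B2m and Bst2 are shown as the called members with a match and the smallest adjusted p, with the matches in capitals, at B2m (chr2:122147437-122147736, plus strand) and Bst2 (chr8:71537423-71537722, minus strand); in Bst2, 2 matches overlap.
B2m: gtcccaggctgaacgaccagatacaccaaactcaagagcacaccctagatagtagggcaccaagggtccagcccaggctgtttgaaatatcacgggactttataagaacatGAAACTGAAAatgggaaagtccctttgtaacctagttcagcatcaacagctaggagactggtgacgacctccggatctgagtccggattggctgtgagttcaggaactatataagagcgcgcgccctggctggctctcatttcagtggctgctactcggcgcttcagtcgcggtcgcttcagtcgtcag
Bst2: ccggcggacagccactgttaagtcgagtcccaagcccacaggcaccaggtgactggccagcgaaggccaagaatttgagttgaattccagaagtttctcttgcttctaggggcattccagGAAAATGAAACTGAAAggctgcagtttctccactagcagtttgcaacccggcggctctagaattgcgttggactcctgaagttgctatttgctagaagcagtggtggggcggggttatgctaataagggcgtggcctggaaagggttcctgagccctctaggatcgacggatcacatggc

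Of 19 tested circadian clock genes 4 rose and 5 fell, and 2 and 2 did with the covariate. Arntl, the activator that pairs with CLOCK, was at 2.88, 3.87 and 3.03 FPKM fed and 8.32, 9.42 and 8.45 FPKM in cold plus fasting (log2 difference 1.20, SE 0.17, adjusted p = 2.75e-05). The repressor Cry1 was at 4.23, 3.78 and 3.79 FPKM fed and 8.34, 15.8 and 10.3 FPKM in cold plus fasting (log2 difference 1.29, SE 0.21, adjusted p = 0.000127). Dbp, an output factor that ARNTL and CLOCK activate, fell from 14.2, 11.1 and 10.7 to 3.13, 2.46 and 1.97 FPKM (log2 difference -1.89, SE 0.27, adjusted p = 4.44e-05). Nr1d2, a repressor of Arntl, went from 20.6, 22.9 and 13.7 to 7.36, 4.76 and 4.74 FPKM (log2 difference -1.59, SE 0.25, adjusted p = 9.72e-05). None of these 4 genes overlapped between the groups, and each kept its call with the covariate. Per3 fell as well (-1.27, adjusted p = 0.00291, and 0.0585 with the covariate), whereas the calls of Nr1d1 (-1.13, adjusted p = 0.0191, -0.53 against fed replicate 3 alone) and Per1 (-1.35, adjusted p = 0.0343) ended without several libraries in turn. With the covariate adjusted p was 0.198 and 0.0805. For Nr1d1 the libraries were cold plus fasting replicate 2 and fed replicates 1 and 2 (adjusted p = 0.121, 0.0836 and 0.1), and for Per1 every library but cold plus fasting replicate 2 (adjusted p from 0.0601 to 0.179). The list's rises numbered 2 without any 1 of the libraries but cold plus fasting replicate 1, and its falls 3 without fed replicate 1 or 2. The labels do not give the time of day of sampling.

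**Figure D3:**
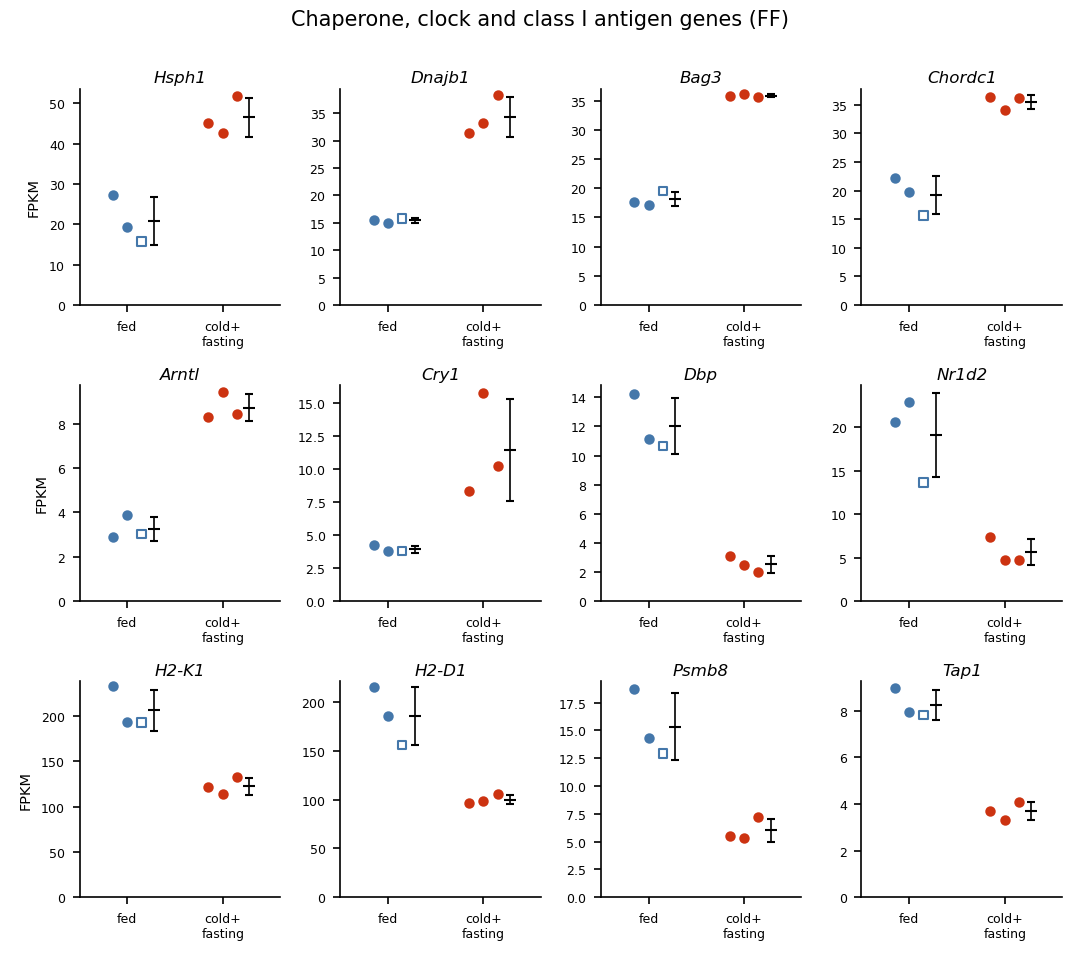
FPKM of 4 chaperone genes (top row), 4 clock genes (middle) and 4 class I antigen genes (bottom) in the FF fed and cold plus fasting libraries, 1 point per library on linear axes from 0, with fed replicate 3 as an open square; the bars give the mean and SD (n = 3). In all 12 genes the groups do not overlap, with chaperones, Arntl and Cry1 higher and Dbp, Nr1d2 and the class I genes lower in cold plus fasting.

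Of 16 tested genes that respond to glucocorticoids, adrenal hormones of fasting and stress, 1 rose and 6 fell (median -0.43), and 0 rose and 0 fell with the covariate. The falls became 1 without fed replicate 1 or 2 or cold plus fasting replicate 1 or 3. Fkbp5, a chaperone of the receptor, was at 8.1, 15.2 and 1.67 FPKM fed and 2.04, 2 and 1.55 FPKM in cold plus fasting (log2 difference -1.36, SE 0.48, adjusted p = 0.0458), and against fed replicate 3 alone the log2 difference was 0.09. Zbtb16, a zinc finger factor, was at 28.8, 40.2 and 3.96 FPKM fed and 4.43, 3.46 and 2.74 FPKM in cold plus fasting (log2 difference -2.02, SE 0.64, adjusted p = 0.0272), and -0.14 against fed replicate 3. In both, fed replicates 1 and 2 were high and fed replicate 3 lay within the cold plus fasting range. Both calls ended with the covariate (adjusted p = 0.515 and 0.413) and without any 1 of the 6 libraries but fed replicate 3 (adjusted p from 0.0813 to 0.304 and from 0.0531 to 0.175). Tsc22d3, a mediator of the anti-inflammatory action of the hormones, fell from 44.8, 52.9 and 21.8 to 16.1, 13.1 and 10.6 FPKM (log2 difference -1.44, SE 0.30, adjusted p = 0.00135), with no overlap and -0.69 against fed replicate 3 (adjusted p = 0.0502 with the covariate). Of 19 genes of insulin signalling and FOXO targets, 2 rose and 6 fell, and 0 passed in either direction with the covariate. The falls became 3 without fed replicate 2. Foxo1, at 23.4, 22.6 and 10.7 FPKM fed and 6.72, 10.5 and 7.91 FPKM in cold plus fasting (log2 difference -1.03, SE 0.26, adjusted p = 0.00623, -0.34 against fed replicate 3 alone), lost its call with the covariate (adjusted p = 0.144) and without fed replicate 1 (adjusted p = 0.0502).

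Of 68 tested genes of cytosolic ribosomal proteins 1 rose and 29 fell, with a median of -0.30. With the covariate 0 rose and 3 fell, and the falls numbered 6 without fed replicate 2 and 17 or 18 without any 1 of the cold plus fasting libraries. Rpsa, a protein of the small subunit, fell from 62.3, 67.6 and 63 to 38.7, 39.6 and 39.1 FPKM (log2 difference -0.70, SE 0.09, adjusted p = 7.69e-06). Rps4x went from 92.9, 106 and 89.2 to 69.4, 64.7 and 62.5 FPKM (log2 difference -0.54, SE 0.09, adjusted p = 0.000159). Both kept their calls with the covariate and did not overlap. Many ribosomal protein genes have processed pseudogenes with which reads can be shared. Of 31 genes of autophagy and the lysosome 10 rose and 0 fell, and 3 rose with the covariate. The count was 4 without fed replicate 1 and 5 or 6 without cold plus fasting replicate 1 or 2. The lysosomal membrane gene Lamp1 (0.51, adjusted p = 0.000234) and the protease Ctsd (0.43, adjusted p = 0.000946) were among them. In the integrated stress response 5 of 16 genes rose and 3 fell (1 and 0 with the covariate). Atf4, its central factor, rose from 42.2, 45.8 and 78 to 93.2, 105 and 90.4 FPKM (log2 difference 0.84, SE 0.18, adjusted p = 0.00161, 0.30 against fed replicate 3 alone), and the covariate ended its call (adjusted p = 0.0766). The falls became 1 without fed replicate 1 or cold plus fasting replicate 1 or 3. Of 20 endoplasmic reticulum chaperones and unfolded protein response genes 3 rose and 1 fell (rises 1 without fed replicate 1 and 0 without cold plus fasting replicate 1). Of 32 proteasome genes 2 rose, of 14 Nrf2 antioxidant genes 3 rose, of 10 heme synthesis genes 3 rose and 1 fell, and of 15 immediate-early genes 1 fell, with 0 calls left in each of these lists under the covariate.

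Of 17 tested secreted factors and adipokines 3 rose and 3 fell (2 and 2 with the covariate). Apln, the peptide hormone apelin, rose from 1.35, 1.03 and 1.91 to 6.69, 7.56 and 6.05 FPKM (log2 difference 1.69, SE 0.18, adjusted p = 6.09e-07). Cfd, adipsin, a complement protease made by adipocytes, fell from 1261, 1522 and 1264 to 399.7, 348 and 355 FPKM, 27.2% of the fed mean (log2 difference -1.87, SE 0.19, adjusted p = 3.57e-07). Igf1 went from 13, 17.7 and 12.2 to 3.13, 1.47 and 3.01 FPKM (log2 difference -2.13, SE 0.25, adjusted p = 3.06e-06). The groups were well apart in each. Leptin (Lep) was at 5.42, 4.38 and 3.66 FPKM fed and 3.62, 3.55 and 13.6 FPKM in cold plus fasting (0.31, adjusted p = 0.617), with 1 high cold plus fasting library, and Vegfa did not pass (0.08, adjusted p = 0.677). Fgf21, a hormone of fasting and cold, was under the level for testing at 0, 0 and 0.209 FPKM fed and 1.95, 0.633 and 1.59 FPKM in cold plus fasting, so the groups did not overlap. Of 24 genes of collagens and matrix 1 rose and 9 fell (1 and 4 with the covariate). The list median was -0.07 and 11 members had a positive difference. Their summed level was 775.0 to 883.5 FPKM fed and 799.7 to 849.3 FPKM in cold plus fasting, so the list as a whole did not fall. Col3a1 fell from 39.3, 43.1 and 31.1 to 17.8, 20.04 and 19.7 FPKM (log2 difference -0.93, SE 0.17, adjusted p = 0.000393). Col1a2 went from 19.5, 20.7 and 17.3 to 10.1, 9.91 and 11.2 FPKM (log2 difference -0.82, SE 0.16, adjusted p = 0.000855), both fibrillar collagens. Of 9 fibroblast markers 0 rose and 1 fell, with summed levels of 174.0 to 226.3 FPKM fed and 157.2 to 197.1 FPKM in cold plus fasting, and their part in the collagen genes was not tested.

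Of the markers of other cells, all 5 tested erythroid genes rose (3 with the covariate), and their summed level was 155, 120 and 188 FPKM fed and 450, 547 and 523 FPKM in cold plus fasting. Hbb-bs, a beta globin, was at 102, 78.3 and 115 FPKM fed and 285, 358 and 328 FPKM in cold plus fasting (log2 difference 1.72, SE 0.33, adjusted p = 0.000688), and the alpha globins Hba-a1 and Hba-a2, near-identical genes, rose by 1.85 and 1.69. Slc4a1, an anion exchanger of red cell membranes, was below 0.1 FPKM in all 6 libraries. Of 12 endothelial markers 5 rose and 1 fell (3 and 0 with the covariate, and 2 or 3 rises without cold plus fasting replicate 2 or fed replicate 1 or 2). Eng was at 25.9, 22.4 and 36 FPKM fed and 54, 57.6 and 56.4 FPKM in cold plus fasting (log2 difference 1.00, SE 0.17, adjusted p = 0.000234, 0.62 against fed replicate 3 alone). Emcn was at 9.52, 9.79 and 11.2 FPKM fed and 19, 21.1 and 18.7 FPKM in cold plus fasting (log2 difference 0.88, SE 0.15, adjusted p = 0.000159). Ighm, an immunoglobulin heavy chain gene, rose from 4.09, 4.95 and 7.82 to 18.8, 32.3 and 12.8 FPKM (log2 difference 1.70, SE 0.33, adjusted p = 0.000768).

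Cold plus fasting was also tested against FF mice in cold alone. FF cold replicates 2, 3 and 4 are of the earlier library series, and replicate 1 and all cold plus fasting libraries of the later one. By limma 0 of 11807 genes passed (0.0%), with 344 at an unadjusted p under 0.05 and a smallest adjusted p of 0.954. With library series as a covariate 0 passed as well. The 95% interval of the difference lay within 0.5 on the log2 scale on either side of 0 for 10251 genes (86.8%) and within 1 for 11603 (98.3%), so a difference beyond 1 lies outside the interval for most genes. Mb was at 45.3 to 64.1 FPKM in cold alone, and its difference, cold plus fasting minus cold, was -0.25 (95% interval -0.87 to 0.37). For Car3, at 158 to 237 FPKM in cold, it was 0.36 (95% interval -0.07 to 0.79). Ucp1 was listed at 0 in every cold library, taken as a failed estimate, and has no value for this comparison. No chaperone passed. Dnajb1 was at 15.9 to 26.8 FPKM in cold and differed by 0.69 (95% interval 0.28 to 1.10), and Hspa1b, at 0.248 to 1.36 FPKM, by 1.63 (95% interval 0.75 to 2.50), with adjusted p = 0.96 and 0.954. In BKO mice 1 of 11807 genes was lower in cold plus fasting than in cold (0.00847%).

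Against fasting at room temperature the cold plus fasting libraries differed widely, with 6270 genes passing (53.1%), 3223 higher (27.3%) and 3047 lower (25.8%). All FF fasted libraries are of the earlier series, and with library series as a covariate the count was 3555. Of the 17 lipogenesis genes 14 were higher and 0 lower in cold plus fasting than in fasting, with a median of 2.02. The same comparison in BKO libraries, which are all of the later series, gave 14 and 0 among 5414 called genes (45.9%). Its spread comes from the fit over all 26 libraries, so it is not independent of the FF comparison. Acly was at 191 ± 76.1 FPKM fasted (SD, n = 3), 1291 ± 82.1 FPKM in cold (SD, n = 4), 1354 ± 449 FPKM in cold plus fasting and 1274 ± 479.5 FPKM fed (SD, n = 3 each). Acaca stood at 59.6 ± 29 FPKM fasted (SD, n = 3) and 300.2 ± 37.3 FPKM in cold plus fasting (SD, n = 3), and Srebf1 at 13.5 ± 2.36 and 84.8 ± 23.7 FPKM (SD, n = 3 each). The fasted group was the low one in all 3 genes, and the other 3 states overlapped. Of 23 glycolysis genes 19 were higher and 1 lower than in fasting, of 22 cholesterol genes 20 and 1, and of 70 mitochondrial ribosomal protein genes 54 and 1. The glucocorticoid-responsive genes went the other way, with 2 of 16 higher and 13 lower. Fkbp5 was at 58.2 ± 38 FPKM fasted and 1.86 ± 0.27 FPKM in cold plus fasting (SD, n = 3 each; log2 difference -4.06, adjusted p = 3.57e-07).

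**Figure D4:**
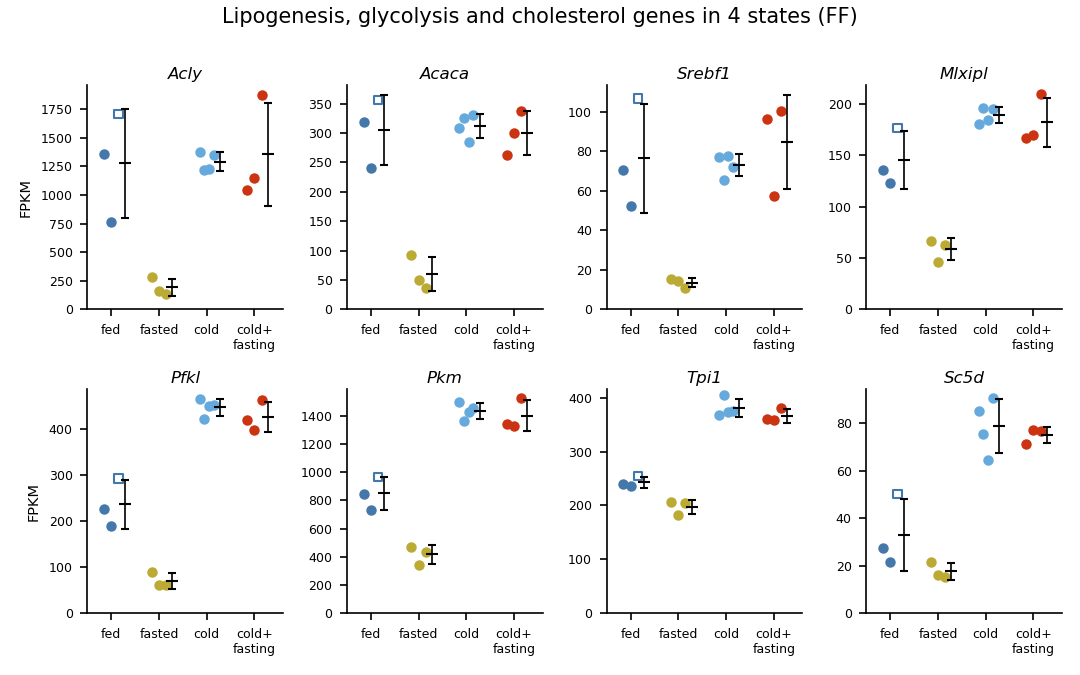
FPKM of 8 genes of lipogenesis (top row) and of glycolysis and cholesterol synthesis (bottom row) in FF libraries fed, fasted, in cold and in cold plus fasting, 1 point per library on linear axes from 0, with fed replicate 3 as an open square; the bars give the mean and SD (n = 3, and 4 in cold). In all 8 genes the fasted libraries lie below those in cold and in cold plus fasting, and in Acly, Acaca and Srebf1 the fed, cold and cold plus fasting groups overlap.

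Side by side with the fed comparison, which uses the same fed libraries, cold against fed called 2887 genes (24.5%, 13.8% higher and 10.6% lower) and fasting against fed 4546 (38.5%, 20.5% lower). In lipogenesis 3 genes rose and 1 fell in cold against fed, and 0 rose and 15 fell in fasting against fed. In glycolysis the counts were 13 and 0 in cold and 1 and 15 in fasting, and among heat shock chaperones 5 and 0 in cold and 2 and 6 in fasting. Against fasting, 13 of the 16 chaperones were higher in cold plus fasting and 1 was lower. The lower one was Bag3, at 53.9 ± 16.4 FPKM fasted and 35.9 ± 0.211 FPKM in cold plus fasting (SD, n = 3 each; log2 difference -0.53, adjusted p = 0.0129). For Ckb no difference was called, with fasting at 44.4 ± 15.9 FPKM and cold plus fasting at 48.4 ± 12.3 FPKM (SD, n = 3 each; adjusted p = 0.568).

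The same comparison in BKO mice, in which the Cre is meant to delete Klf15 in brown adipocytes, sets means of BKO libraries of the later series against each other, with the spread of the fit over all 26 libraries. Library numbers were 21 to 25 in BKO cold plus fasting and 29 to 32 in BKO fed, so state and number block cannot be told apart here either. The BKO comparison called 2333 genes (19.8%), 1248 higher (10.6%) and 1085 lower (9.19%), and 754 when only those BKO libraries were fitted. Of the FF calls, 1465 were also called in BKO in the same direction, which is 58.2% of the FF and 62.8% of the BKO calls, and 0 were called in the opposite direction. In total 2465 FF calls (97.9%) had the same sign in BKO. The share of same signs over all tested genes was not counted, so this figure has no background beside it. Mb differed by 3.77, adjusted p = 3.27e-08, Hcn2 by 3.00, adjusted p = 7.71e-11, Bmp8b by 2.18, adjusted p = 8.91e-05 and Car3 by -3.92, adjusted p = 6.29e-11 in BKO mice on the log2 scale. In glycolysis 13 and 2 genes rose and fell, in fatty acid oxidation 13 and 1, among heat shock chaperones 6 and 0, in class I and interferon genes 0 and 12, in collagens 2 and 9 and in the respiratory chain 24 and 0. Among cytosolic ribosomal proteins 1 and 4 did in BKO, and among glucocorticoid-responsive genes 0 and 2. Ucp1 rose in BKO too (0.86, adjusted p = 0.00762), and Zbtb16 and Fkbp5 did not pass (-0.16, adjusted p = 0.89 and -0.31, adjusted p = 0.694).

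Tested as the difference of the responses, 2 of 11808 genes passed (0.0169%), with 436 at an unadjusted p under 0.05. One was Anxa8, a calcium-binding annexin, and the other a predicted gene. Anxa8 fell in FF from 5.93, 6.6 and 4.14 to 0.453, 0.474 and 0.353 FPKM (log2 difference -2.18, SE 0.12, adjusted p = 1.66e-11) and in BKO from 2.13, 1.54 and 1.6 to 0.16, 0.141 and 0.275 FPKM (-1.20, adjusted p = 3.68e-07). On the log2(FPKM + 1) scale the response was smaller in BKO by 0.98 (SE 0.17, adjusted p = 0.0408). The fed mean was 5.55 FPKM in FF and 1.75 FPKM in BKO, and the fed means were 13 and 9.14 times the cold plus fasting means. With a pseudocount of 0.1 the difference was 0.72 and the call ended (adjusted p = 0.997). It ended also with the covariate (adjusted p = 0.71), in all under 5 of 10 settings and in 10 of 12 fits without 1 library. In the lists above, no member passed this test by limma.

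**Figure D5:**
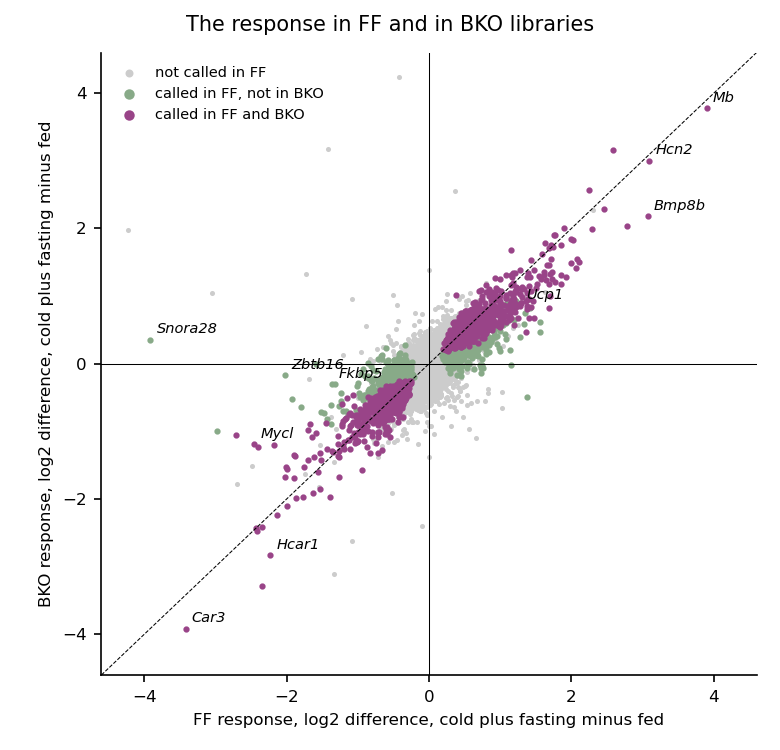
Log2 difference of cold plus fasting minus fed in FF (horizontal) and in BKO libraries (vertical) for 11802 genes, 1 point per gene, with the dashed line where both are equal. Genes called in both (purple) lie along that line, with Mb, Hcn2 and Bmp8b at the upper end and Car3 at the lower, while Zbtb16 and Fkbp5 are near 0 in BKO.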

How the data were processed

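FPKM values were used as deposited; the submitters' processing notes name mm10 and the tools STAR, Cufflinks and Cuffdiff without versions, and RNA was extracted with a Roche HighPure kit, per the labels' protocols. Read counts were not used here, so depth is unknown. Of 48432 genes, 11809 reached 1 FPKM in at least 3 of the 6 libraries. Zeros in 33 genes abundant in other libraries, such as Gpd1 and Fasn, were taken as failed estimates and set to missing. Scd1, at 0 in all 26 libraries, is not among them and was not tested. Log2(FPKM + 1) was fitted with limma 3.58.1 in R 4.3.3 over 8 group means and 26 libraries (18 residual degrees of freedom, intensity trend), with Benjamini-Hochberg adjustment over all genes and a threshold of 0.05; every adjusted p in the text comes from it. Fold changes on this scale understate those of low genes. Alternatives changed the pseudocount, filter, scaling, libraries and library series.

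The groups, gene lists and tests were chosen with earlier results of these data known. Genes are named for the largest changes, for the smallest p in each list or from a fixed list. Another 17 list members were named after their values were seen. Among them are Hsph1, Hspa1a, Hspa1b, Per1, Per3, Nr1d1, B2m, Bst2, Etfdh, Ppara, Pparg and Ebf2. Irf7 and Stat2, given by direction only, and Ifit1, Isg15 and Oasl2, given as members that did not pass, were also named after their values were seen. Genes of chromosome 18 and predicted genes are not named. Coordinates are those of GENCODE M21 (GRCm38) and promoters those of RefSeq (GRCm38.p6).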

Additional observations from a re-analysis of the deposited data

Results flagged for a closer look

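The response of Anxa8 differed between the genotypes by limma's test of the difference itself (adjusted p = 0.0408), a call that ended under 5 of 10 other settings and without 10 of 12 libraries in turn. It fell by 2.18 on the log2 scale in FF (adjusted p = 1.66e-11 by limma) and by 1.20 in BKO mice, a difference, BKO minus FF, of 0.98, and all 3 cold plus fasting libraries were below all 3 fed libraries in both. With a pseudocount of 0.1 the difference was 0.72 (adjusted p = 0.997), and the fed mean was 5.55 FPKM in FF and 1.75 FPKM in BKO. Of the 2 genes past the threshold the other is a predicted gene, near 2 FPKM in the FF fed libraries and at 0 in the other FF and BKO groups.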

How the results depend on the processing

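The 2519 FF calls became 814 with library series as a covariate, 313 with only libraries numbered above 8 and 5530 with array weights, stayed between 1800 and 2803 under the other settings, and ranged from 1510 to 2745 without single libraries. A minimum mean of 5 FPKM gave 63.9% and quantile normalization 51.7% of calls higher, against 56.8%. The 2333 BKO calls became 3965 with array weights and 754 with only the libraries of the groups compared, and ranged from 1401 to 2330 without single libraries. Calls of a difference of responses, 2 in all, were 148 with array weights, 0 with a minimum mean of 5 FPKM and 1 with a pseudocount of 0.1, no filter, the covariate, only libraries above 8 or only the groups compared, and 1 to 4 without single libraries. Against cold, where 0 genes passed by limma (344 at an unadjusted p under 0.05), 2 passed with no filter, 3 with the 13 FF libraries only, 1 with zeros kept, 1 in BKO and 0 to 1 without single libraries. Against fasting 6270 became 3555 with the covariate, and a fit of only libraries above 8 was not run because the FF fasted libraries are all of the earlier series. The cause of these changes was not tested.

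Of 198 named genes with a call, 66 kept it in every setting that tested them (55 in 12 settings, 11 in 11), the covariate ended 75, libraries above 8 alone ended 129 and leaving out a library ended 54. Single falls in the lists of lipolysis, the tricarboxylic acid cycle, other amino acid breakdown and fibroblasts became 0 without 3 or more of the 6 libraries in turn. Fkbp5 reversed to 0.0949 on the log2 scale with only libraries above 8. That fit holds 1 fed FF library. No paired analysis was possible because the labels give no replicate numbers, and the numbers used here follow accession order. Depth is unknown, so no counting error can be given.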
